A study of Oryza sativa with 2 samples.

Results

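Auxin is made in young plant organs by a short pathway and is then moved from cell to cell by carriers placed on chosen sides of the plasma membrane. Tryptophan aminotransferases of the TAA type convert tryptophan to indole-3-pyruvate, and flavin monooxygenases of the YUC type turn that into indole-3-acetic acid. Efflux carriers of the PIN family then concentrate the hormone where a branch, spikelet or floral organ will form, and in Arabidopsis the kinase PINOID phosphorylates PIN proteins and helps to set the side of the cell on which they sit.

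Described here are 7 rice genes of this pathway, chosen by locus identifier from a table of 57446 genes. They are the TAA-type gene FIB (LOC_Os01g07500), the YUC gene YUC1 (LOC_Os01g45760), the PIN genes PIN1A (LOC_Os06g12610), PIN1B (LOC_Os02g50960), PIN1C (LOC_Os11g04190) and PIN1D (LOC_Os12g04000), and PID (LOC_Os12g42020), the rice gene named after PINOID. FIB and YUC1 lie on chromosome 1, PIN1A on 6, PIN1B on 2, PIN1C on 11, and PIN1D and PID on 12. Under the name used here or an alias, RefSeq held 6 of the 7 genes at a matching place on the same chromosome, while PIN1D had no entry. The letters of these PIN genes vary between sources. RefSeq calls the gene on chromosome 2 PIN1A and lists the one on chromosome 6 also as PIN1C and the one on chromosome 11 also as PIN1B, so the locus identifiers decide.

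Messenger RNA was sequenced from whole young panicles under 2 cm long, with 1 library of the wild-type line XD1B and 1 library of the lf2 mutant. The mutation is in LATERAL FLORET 2, a gene for a chromatin remodelling factor of the SNF2 type that the series places in the axillary meristem of the spikelet. The labels name neither the allele nor the number of plants pooled. With 1 library per genotype there was no spread between replicates, no test was made and no p-value is given. The levels are FPKM, which divides the fragments of a gene by its length in kilobases and by the size of the library, and can be compared between genes because they are per length. The values imply 29111345 fragments for XD1B and 27373727 for lf2, and the 95% intervals below come from the whole fragment numbers behind each value. These numbers are lower bounds, and the intervals cover counting error only. In a whole panicle, fewer cells of a type and less RNA per cell cannot be told apart.

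Of the 7 genes, 6 stood lower in the lf2 library and PIN1A did not. YUC1 and PIN1D differed most, at 2.45-fold and 2.31-fold lower in lf2, and FIB, PIN1C, PIN1B and PID followed at 1.73-fold, 1.73-fold, 1.55-fold and 1.38-fold lower. PIN1A stood at 1.12 times its XD1B level. A lower value in lf2 was the commoner case for the whole table too, at 65.2% of the 22150 genes that reached FPKM 1 in a library.

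FIB, the aminotransferase gene of the first step, stood at 15.1 FPKM in XD1B and 8.74 in lf2. The ratio of lf2 to XD1B was 0.578 (0.517 to 0.646), from 901 and 490 fragments. YUC1, the monooxygenase gene of the second step, was the least expressed of the 7 in both libraries, at 5.74 FPKM in XD1B and 2.34 in lf2. Its ratio was 0.407 (0.320 to 0.515), from 261 and 100 fragments, the smallest numbers and so the widest relative interval of the 7. Both synthesis genes were thus lower in lf2, and YUC1 more so than FIB. The ratio of FIB was 1.42 times that of YUC1 (1.09 to 1.85), and FIB stood 2.63 times above YUC1 in XD1B and 3.74 times above it in lf2. Such a ratio of ratios does not depend on how the libraries are scaled against each other.

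PIN1A, PIN1B, PIN1C and PIN1D encode efflux carriers, and PIN1D was the most expressed of the 7 genes in both libraries. It stood at 49.2 FPKM in XD1B and 21.3 in lf2, a ratio of 0.432 (0.399 to 0.468) from 2192 and 891 fragments. For PIN1C the levels were 32.5 in XD1B and 18.8 in lf2, with a ratio of 0.578 (0.538 to 0.621). PIN1B had 23.3 FPKM in XD1B and 15.1 in lf2, with a ratio of 0.646 (0.597 to 0.698). The intervals of all 3 ratios lay below 1. Among these 3 the ratio was smaller the higher the XD1B level, but YUC1, with the lowest XD1B level of the 7 genes, had the smallest ratio.

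PIN1A, the lowest of the 4 carriers in both libraries, stood at 9.31 FPKM in XD1B and 10.4 in lf2. Its ratio of 1.12 (1.004 to 1.24), from 669 and 703 fragments, reached almost to 1 at its lower end. Against the other carriers PIN1A kept more of its XD1B level. Its ratio was 2.59 times that of PIN1D (2.26 to 2.95), 1.93 times that of PIN1C (1.70 to 2.20) and 1.73 times that of PIN1B (1.51 to 1.98). Among the 21 pairs that the 7 genes form, the interval of the ratio of ratios excluded 1 for 17, and all 6 pairs with PIN1A were among them. Closest to 1 among the 17 was PIN1B with PIN1C, at 1.12 (1.004 to 1.24). These intervals cover counting error only and were not adjusted for the 21 pairs. The same count over pairs of all genes was not made, so 17 of 21 does not set these genes apart. The 4 pairs whose interval included 1 were FIB with PIN1B, FIB with PIN1C, YUC1 with PIN1D and PIN1B with PID. For FIB and PIN1C the ratio of ratios was 1.0004 (0.875 to 1.14).

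**Figure D1:**
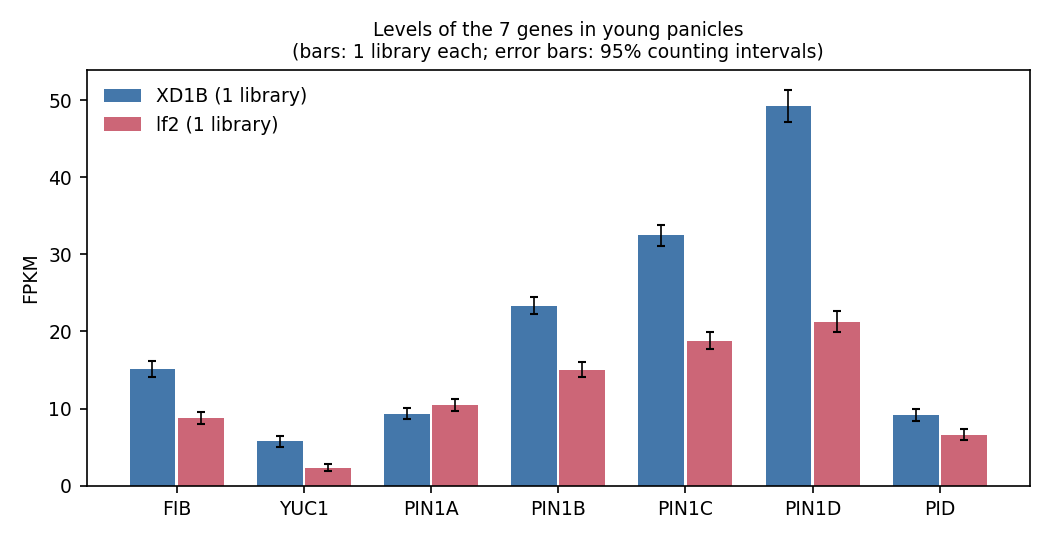
FPKM of each gene (y axis) in the 1 library of XD1B (blue) and the 1 library of lf2 (red), with 95% counting intervals as error bars. PIN1D has the highest bar in both libraries, at 49.2 and 21.3, and PIN1A is the gene whose lf2 bar, at 10.4, is above its XD1B bar, at 9.31.

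The carriers were closer to each other in lf2 than in XD1B. PIN1D stood 5.29 times above PIN1A in XD1B and 2.05 times above it in lf2. The order PIN1D, PIN1C, PIN1B, PIN1A was the same in both libraries, although PIN1D at 19.9 to 22.7 FPKM and PIN1C at 17.7 to 19.9 FPKM were barely apart in lf2.

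PIN1C and PIN1D are a pair of related genes near the ends of chromosomes 11 and 12, which share a duplicated block. No source used here says how reads that match both copies were assigned, so the split between them is uncertain. Read together, the pair stood at 81.7 FPKM in XD1B and 40.04 in lf2. That is -1.01 on the log2 scale with the pseudocount, a value that still depends on the split because the genes differ in length. Their summed fragments gave a ratio of 0.505 (0.479 to 0.532), or -0.99 on the log2 scale. The values lie on opposite sides of the 2-fold limit, and the interval includes it. The recovered fragments are lower bounds for each gene separately, so their sum may weight the 2 genes wrongly. The summed ratio, its interval and its side of the limit are thus uncertain. As deposited, the ratio of PIN1C was 1.34 times that of PIN1D (1.20 to 1.49).

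PID, the kinase gene, stood at 9.14 FPKM in XD1B and 6.62 in lf2. The ratio was 0.725 (0.627 to 0.837), from 474 and 323 fragments, and was the nearest to 1 among the 6 genes that were lower in lf2. In XD1B its level of 8.33 to 9.998 FPKM overlapped that of PIN1A, at 8.62 to 10.04, and these were the only neighbours in the order of the 7 genes whose intervals overlapped there. In lf2 PIN1A stood 1.57 times above PID. The full order in XD1B was PIN1D, PIN1C, PIN1B, FIB, PIN1A, PID and YUC1. In lf2 it differed in that PIN1A stood above FIB, whose interval of 7.99 to 9.55 FPKM lay just below the 9.65 to 11.2 of PIN1A.

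**Figure D2:**
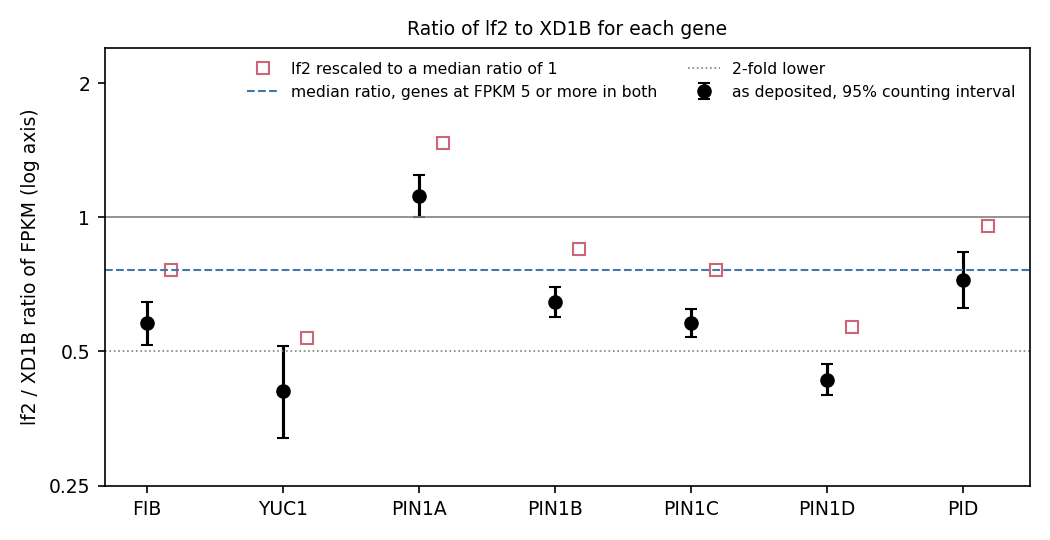
Ratio of lf2 to XD1B in FPKM (log axis) for each gene, as deposited with its 95% counting interval (black) and after lf2 was rescaled to a median ratio of 1 (open red squares). The dashed line marks 0.760, the median ratio of genes that reached FPKM 5 in both libraries: PIN1A lies above it, PID reaches it, and the other 5 genes lie below it.

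To set these differences beside the rest of the table, each gene was given the log2 ratio of lf2 to XD1B after 1 was added to both FPKM values, which understates differences of low genes. On this scale PIN1D stood at -1.17 and YUC1 at -1.01, and these 2 of 7 genes (28.6%) were at least 2-fold lower. The same held for 8.23% of all 22150 genes. None of the 7 (0) passed the 2-fold limit upward, against 15.3% of all genes. YUC1 lay just inside the 2-fold limit, and the interval of its ratio, 0.320 to 0.515, reached across that limit. The value of PIN1D depends on the uncertain split of reads with PIN1C. PIN1C, the nearest gene outside the limit, lay at -0.76. FIB followed at -0.73, PIN1B at -0.60, PID at -0.41 and PIN1A at 0.15. The median of the 7 was -0.73, and that of all genes was -0.31.

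PIN1D had a lower log2 ratio than most genes, with 3.76% of the 22150 below it, and YUC1 had 7.82% below it. PIN1C, FIB and PIN1B had 19.1%, 21.1% and 29.6% of genes below them, PID lay close to the middle of the table at 42.8%, and PIN1A in its upper part at 70.1%. Because the middle of the table is itself below 0, the scaling matters to the size of each difference. When lf2 was multiplied by 1.32, so that the median ratio of the 13597 genes at FPKM 5 or more in both became 1, the log2 ratios were -0.79 for PIN1D, -0.73 for YUC1, -0.38 for PIN1C, -0.37 for FIB, -0.23 for PIN1B, -0.06 for PID and 0.51 for PIN1A. The signs were as before, PID stood near no difference, and 0 of the 7 were then past the 2-fold limit in either direction. Of all genes 1.73% were past it downward on this scaling and 19.6% upward.

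**Figure D3:**
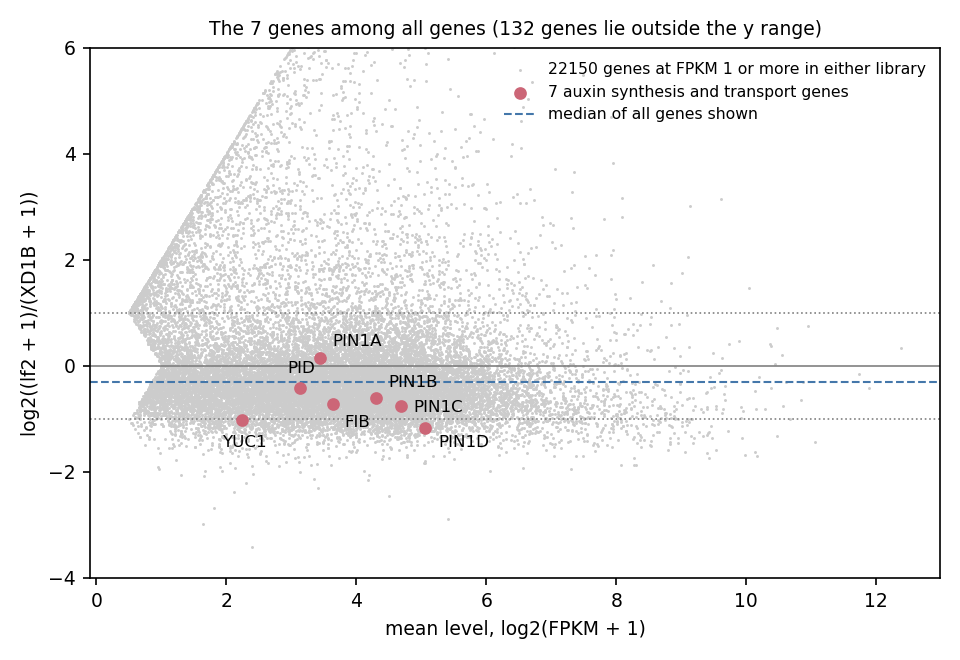
Log2 ratio of lf2 to XD1B with a pseudocount of 1 (y axis) against the mean level of both libraries as log2(FPKM + 1) (x axis) for 22150 genes (grey) and the 7 auxin genes (red), with 132 genes outside the y range. The dashed line is the median of all genes, -0.31, and the dotted lines are the 2-fold limits, below which YUC1 and PIN1D lie.

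The rest of the pathway was read from a list of 35 other loci for auxin synthesis, transport, perception and turnover, of which 9 had a matching RefSeq entry. Among all 35, 22 reached FPKM 1 in a library, and 3 of these (13.6%) passed the 2-fold limit upward in lf2 and 3 (13.6%) downward, beside 15.3% and 8.23% of all genes. Of the 9 matched loci 4 were measured, with 2 higher and 0 lower. With lf2 rescaled as above, 5 of these 22 measured loci passed it upward and 1 downward, beside 19.6% and 1.73% of all genes.

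Among the other PIN genes, 3 of 8 loci were measured, 2 of them lower in lf2 and 1 higher, with a median log2 ratio of -0.83. The 2 lower loci had no RefSeq entry and stood at ratios of 0.283 (0.187 to 0.418) and 0.453 (0.358 to 0.569), or -1.20 and -0.83 on the log2 scale. The first of these passed the 2-fold limit, beside 8.23% of all genes. After rescaling it stood at -0.99 and no longer passed. The matched gene of the 3, PIN10A, an efflux carrier gene that RefSeq also lists as PIN3A, was higher in lf2. It stood at 14.2 FPKM in XD1B and 25.96 in lf2, a ratio of 1.83 (1.69 to 1.97), or 0.83 on the log2 scale and 1.21 after rescaling.

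Of the 13 other loci listed as YUC genes, 6 were measured and 5 were at 0 in both libraries. None of the 6 passed the 2-fold rule upward or downward (0 and 0), beside 15.3% and 8.23% of all genes. Their log2 ratios ran from -0.47 to 0.96, with 3 below 0 and 3 above. YUC1 at -1.01 lay below that range. In XD1B its 5.74 FPKM (5.07 to 6.48) was above all 13, but its interval overlapped that of the highest, at 5.07 (4.17 to 6.11). In lf2 its 2.34 FPKM (1.90 to 2.85) was below 5 of the 13, the highest of which stood at 5.93. Its interval overlapped those of some of these 5, the nearest of which stood at 2.42 (1.98 to 2.93). After rescaling, 1 of the 6 was at least 2-fold higher, beside 19.6% of all genes. In both scalings YUC1 had the lowest log2 ratio of the measured YUC loci.

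Of the 2 other loci listed as TAA-type genes 1 was higher in lf2 and 1 lower. LOC_Os05g07720 was listed at 0 FPKM in XD1B and 15.1 in lf2, from 710 fragments, so at least 252-fold higher if 3 fragments are taken as the floor of the XD1B library. The remaining locus was lower in lf2, as FIB was, with a ratio of 0.833 (0.709 to 0.978). The summed level of the pair was 13.1 FPKM in XD1B and 26.04 in lf2, against 15.1 and 8.74 for FIB. Neither locus had a RefSeq entry, so their class was not checked here, and LOC_Os05g07720 was singled out after its values had been seen.

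All 4 measured loci of the 5 listed as auxin influx carriers of the AUX1 type were below their XD1B level, with log2 ratios from -1.42 to -0.10 and a median of -0.83, beside the 65.2% of all genes below 0. The locus nearest to 0 had a ratio of 0.903 whose interval of 0.717 to 1.14 included 1, and it stood at 0.18 after rescaling, when 3 of the 4 were below 0. The lowest, LOC_Os03g14080, had 31.7 FPKM in XD1B and 11.2 in lf2, with a ratio of 0.355 (0.323 to 0.389). It was the 1 locus of this list past the 2-fold limit, beside 8.23% of all genes downward, and was likewise chosen after its values were seen. After rescaling LOC_Os03g14080 was at -1.05, again past the limit, beside 1.73% of all genes downward. The summed level of the 5 loci was 91.8 FPKM in XD1B and 45.02 in lf2, a ratio of 0.491. These loci had no RefSeq entry either. The 2 loci listed as auxin receptors had log2 ratios of -0.17 and 0.20, and the 2 listed for ABCB-type transport and PIN trafficking had -1.005 and -0.21.

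GH3-2 and GH3-8, the only 2 genes of auxin conjugation in the list, stood higher in lf2, unlike FIB and YUC1. Both passed the 2-fold limit upward, beside 15.3% of all genes, and 2 genes do not stand for conjugation as a whole. Their enzymes conjugate auxin to amino acids. GH3-2 stood at 0.594 FPKM in XD1B and 66.3 in lf2, and GH3-8 at 11.5 and 79.99. Their ratios were 112 (82.1 to 156) and 6.94 (6.44 to 7.49). DAO, which encodes an auxin-oxidising dioxygenase, had 2.89 FPKM in XD1B and 2.69 in lf2, with a ratio of 0.931 (0.287 to 2.94) whose wide interval rests on lower bounds of 8 and 7 fragments.

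Marker genes differed between the libraries alongside these values. All 8 young panicle markers were expressed in both libraries. Over the 7 with a RefSeq match the summed level was 610.2 FPKM in XD1B and 275.1 in lf2. Of these 7, 4 were at least 2-fold lower, beside 8.23% of all genes. LAX1 was the 1 that was not lower, at 3.54 and 4.51 FPKM, with a ratio of 1.27 (0.983 to 1.65). Summed over the 7 auxin genes the level was 144.3 and 83.2 FPKM. All 5 wounding and heat markers passed the 2-fold limit upward, beside 15.3% of all genes. Their summed level was 31.8 FPKM in XD1B and 530.3 in lf2. The 4 green leaf markers split into 1 higher and 2 lower, with sums of 115.8 and 139.8 FPKM. Of the 4 root markers LSI2 and NAS1 were at 0 in both libraries, and the sum was 0.699 and 26.7 FPKM, most of it from PT8. The part of panicle stage, cell makeup or stress in the differences of the auxin genes was not tested.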

How the data were processed

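The authors deposited FPKM values, with 1 column for each library, per the file headers. No source used here names the genome build, annotation, aligner, counting tool or filters. Every FPKM above 0 (32350 genes) could be written as whole fragments over a whole-base length and a library total, within 0.0002 fragments plus 3e-07 of the number. The total was the largest between 10000000 and 60000000 that made the lowest values whole. Recovered fragments summed to 89.0% and 88.2% of the totals. Ratio intervals are exact conditional binomial (Clopper-Pearson) intervals, ratio-of-ratio intervals exact conditional odds ratio intervals and level intervals exact Poisson intervals, each at 95%. Recovery and intervals were tested on simulated Poisson counts, without replicate spread or reads shared between genes, so neither of these was tested. A recovered length that divides the true one was accepted.

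The size rule was a log2 ratio, pseudocount 1, of at least 1 or at most -1 among genes reaching FPKM 1 in a library. All 7 genes are named, as is each pathway gene matched in RefSeq (assembly ASM3414082v1, by name or alias, chromosome and relative position within 12%) and measured. The position limit was set after matches were seen. The 7 genes and the lists were chosen with earlier results of these data known. Sequences are not shown. The tools were matplotlib 3.10.9, scipy 1.17.1, numpy 2.4.6 and pandas 2.3.3 under Python 3.11.15. A result for the PIN genes as a group is not reported here.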

Additional observations from a re-analysis of the deposited data

How the results depend on the processing

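No paired analysis was possible because each genotype has 1 library, and for the same reason no replicate could be left out. All alternatives were planned but the summed FPKM of PIN1C and PIN1D, added after the data had been seen. Rescaling lf2 to a median ratio of 1 gave log2 ratios of -0.37 for FIB, 0.51 for PIN1A, -0.23 for PIN1B, -0.38 for PIN1C, -0.79 for PIN1D and -0.062 for PID, a median of -0.37 over the 7, 0 of the 7 and 389 of all genes at least 2-fold lower, and 1 matched PIN gene (PIN10A) at least 2-fold higher, since it multiplies every lf2 value. A pseudocount of 5 gave -0.55 for FIB, -0.55 for YUC1, -1.05 for PIN1D and -0.55 for the median, 1 of the 7 at least 2-fold lower, and 2183 higher and 648 lower among all genes; a pseudocount of 0.1 gave 2978 lower. In place of the separate values of PIN1C and PIN1D, their summed fragments gave -0.99 and their summed FPKM -1.01, on opposite sides of the 2-fold limit. The fragment sum rests on lower bounds for each gene, so its side of the limit is uncertain. Using all loci of the lists gave 1 other PIN locus and 3 pathway loci at least 2-fold lower, in place of 0 and 0. Lists without a measured matched locus had no value to compare. No sign of the 7 log2 ratios changed under the pseudocounts and rescalings run. Rescaling both libraries to a sum of 1000000, dropping the filter and raising it to FPKM 5 moved none of the values beyond the counting interval or 1.5 times. Depth limits YUC1 most, at 100 fragments in lf2.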

Other observations

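The loci next to the 7 genes along the chromosomes were also read, 5 on each side in the order of their identifiers. Of 70 such loci 36 were measured, and the 2-fold limit was passed downward in lf2 by 2 of them (5.56%) and upward by 5 (13.9%), beside the 8.23% and 15.3% of all genes. Their median log2 ratio was -0.24. Beside PIN1D, 1 of 5 measured neighbours passed it downward and 1 upward, and beside YUC1 0 of 2 downward and 1 upward. This reading of the neighbours was added after the values of the 7 genes had been seen.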
